A study of Mus musculus with 10 samples.

Results

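The 10 genes described here, Gpx1, Gpx4, Selenow, Selenof, Selenom, Selenot, Txnrd1, Txnrd2, Sephs2 and Msrb1, encode proteins that hold selenocysteine. They were taken by name from the 21934 gene symbols of both deposited tables, and all 10 were found. Ribosome profiling, in which the mRNA fragments covered by ribosomes (footprints) are sequenced, was set beside input RNA to ask how loss of Wdr4 bears on translation. One table held immortalized bone marrow-derived macrophage (iBMDM) lines, each monoclonal, infected with lentivirus and selected with puromycin: sgWdr4-1 and sgWdr4-2, each with a different guide RNA against Wdr4, and a WT control. The other held F4/80-positive tumour-associated macrophages (TAM), sorted from orthotopic liver tumours of Hepa1-6 hepatoma cells, labelled Wdr4 cKO, from mice with a myeloid deletion of Wdr4, or Wdr4 ff, from mice carrying the floxed alleles. Each of the 5 conditions had a single input library, of polyadenylated RNA, and a single footprint library, so no condition was replicated. For the mice, the sources used here do not state number, age, strain, pooling or the driver of the myeloid deletion.

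Selenocysteine is inserted at an in-frame UGA codon, which otherwise stops translation, when a stem-loop in the 3′ untranslated region recruits the binding protein Secisbp2 and the elongation factor Eefsec with a dedicated tRNA. Most selenoproteins whose function is known are oxidoreductases: glutathione peroxidases reduce hydroperoxides, thioredoxin reductases recharge thioredoxin, and Msrb1 repairs oxidised methionine. In macrophages these enzymes are known for limiting oxidative damage, and Gpx4, which reduces lipid hydroperoxides, for holding off ferroptosis. Wdr4 works with Mettl1, the enzyme that adds a methyl group to guanosine in certain tRNAs.

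The libraries did not match their labels in every respect. Wdr4 input was 31.3 TPM in sgWdr4-1 and 44.5 TPM in sgWdr4-2, against 44.6 TPM in WT, and 20.9 TPM in Wdr4 cKO against 39.8 TPM in Wdr4 ff, while Wdr4 footprints were 24.3 TPM in sgWdr4-1 and 26.9 TPM in sgWdr4-2, against 13.3 TPM in WT, and 17.7 TPM in Wdr4 cKO against 8.51 TPM in Wdr4 ff. The input values of sgWdr4-2 and WT were level, and footprints in all 3 targeted libraries were above their controls. Directions below are therefore between libraries labelled so. Most of the macrophage markers, 16 of 20, stayed under 1 TPM in each input, and the F4/80 gene Adgre1 was listed at 0 throughout, as was Aif1, whereas 7 of 12 fibroblast and stellate cell markers were at 5 TPM or more in every input. The sgWdr4-1 footprint library stood apart: the share of its TPM from mitochondrially encoded genes was 0.781%, against 9.94% to 14.6% in the other 4 footprint libraries. Every result that uses sgWdr4-1 is given beside that of sgWdr4-2. TPM values are scaled by length and to the same total in each library, so read depth is unknown and counting intervals cannot be given.

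In input RNA the 10 genes spanned a wide range of levels (plot of levels by library). Selenof, an endoplasmic reticulum protein of glycoprotein quality control, was highest, at 665 to 696 TPM over the 5 input libraries, followed by Gpx4 at 573 to 685 TPM, and the 2 ranges overlapped. Txnrd1 lay at 377 to 585 TPM, overlapping Gpx4, Gpx1 at 227 to 254 TPM, Selenot at 189 to 205 TPM and Selenow at 80.5 to 98.3 TPM. Msrb1 at 49.98 to 92.9 TPM and Sephs2 at 43.9 to 62.1 TPM overlapped. Selenom at 17.7 to 21.6 TPM and Txnrd2 at 12.0 to 14.7 TPM were lowest, and their ranges were apart. Together the 10 genes took 0.233% to 0.256% of input TPM.

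Footprints were ordered differently. Selenof held 57.2% to 65.0% of the footprint TPM of the 10 genes, at 829.9 to 1681 TPM, and its range was apart from those of the other 9. Selenow, Selenot, Txnrd1 and Msrb1 followed with ranges that overlapped from one gene to the next. Gpx1 and Gpx4, which made up 33.2% to 38.3% of the 10 genes' input TPM, made up 0.420% to 0.757% of their footprint TPM. In all the 10 genes took 0.145% of footprint TPM in sgWdr4-1 and 0.215% to 0.259% in the other 4 libraries.

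**Figure D1:**
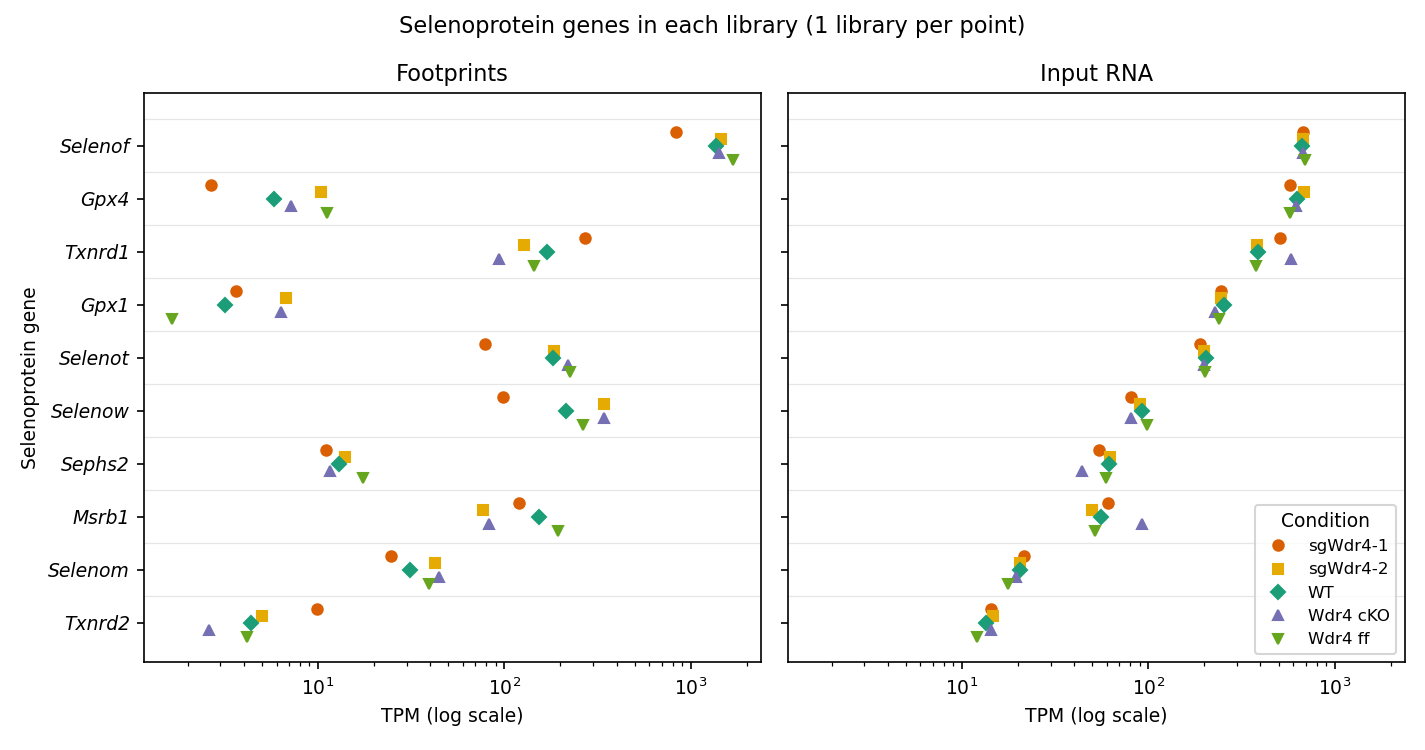
TPM of the 10 selenoprotein genes in each footprint library (left) and each input library (right), on a log axis, with 1 point per library and 1 symbol per condition. Input points spread most for Msrb1 (49.98 to 92.9 TPM) and Txnrd1 (377 to 585 TPM), and footprints of Gpx4 (2.67 to 11.1 TPM) and Gpx1 (1.66 to 6.73 TPM) lie far to the left of their input.

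The difference of log2(footprint TPM + 1) and log2(input TPM + 1), called translation efficiency here, differed widely between the genes. The median over the 5 conditions was highest for Selenow (1.42), Selenof (1.08), Selenom (1.01) and Msrb1 (0.95), whose ranges overlapped in this order. Selenot was next at -0.10, then Txnrd1 at -1.38, Txnrd2 at -1.38 and Sephs2 at -2.08, again with overlapping neighbours. Gpx1 at -5.74 and Gpx4 at -6.25 were lowest, and no value of either reached the lowest value of the 8 others. The median of all genes tested lay between -0.85 and -0.43 in the 5 conditions. The tables were normalised separately, so levels set across them are descriptive. Translation efficiency also depends on the share of a transcript that is coding if lengths were taken over whole transcripts, and the sources used here do not state which length was used.

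**Figure D2:**
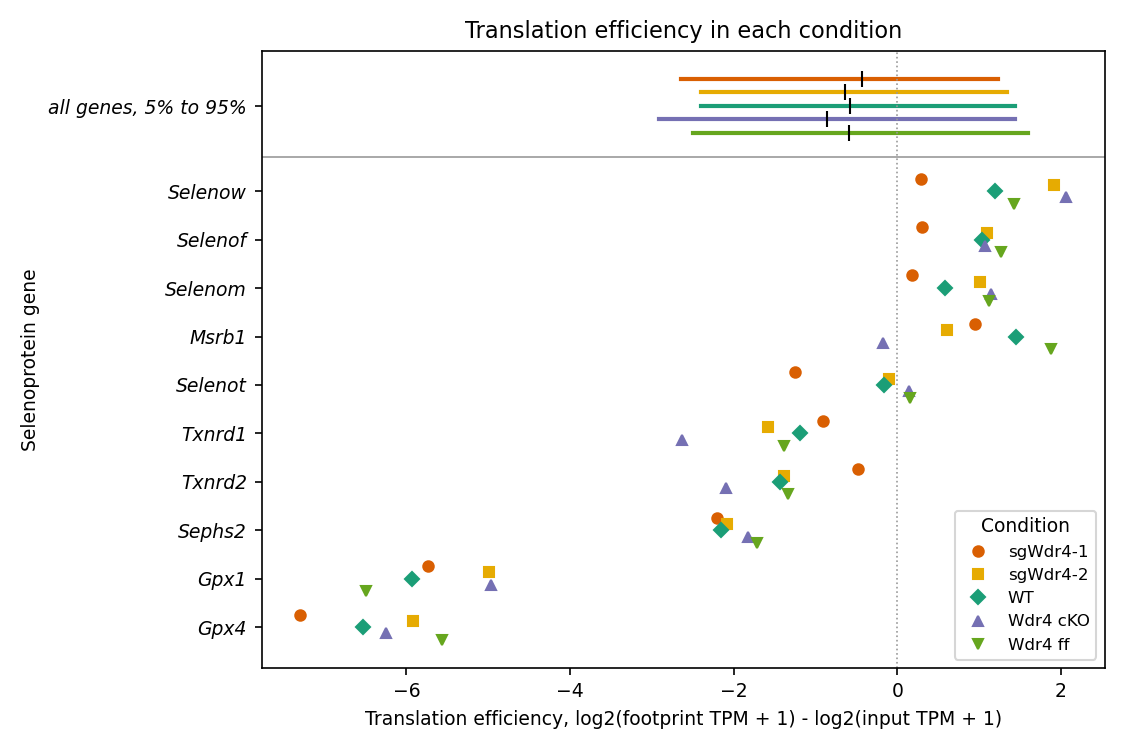
Translation efficiency, on the log2 scale, of the 10 selenoprotein genes (1 point per condition), with the span from the 5th to the 95th percentile of all genes tested and their median (tick) above, in the colour of each condition. Gpx1 (-6.50 to -4.97) and Gpx4 (-7.30 to -5.57) lie below that span in every condition, and Selenow runs from 0.29 in sgWdr4-1 to 2.07 in Wdr4 cKO.

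Genes at least 2-fold apart between conditions were counted among the 10 and, beside them, over all genes. Within a table, genes entered the comparisons with a mean of at least 5 TPM in both input and footprints. In iBMDM 9 of the 10 did so (all but Gpx1), and in TAM 8 (all but Gpx1 and Txnrd2). For translation efficiency in sgWdr4-1 against WT, 1 of the 9, Selenot, was at least 2-fold lower, where 13.7% of all 7536 genes were, and 0 were at least 2-fold higher, where 14.8% were. Selenow joined the lower ones in sgWdr4-1 (-1.02) when the scaling omitted histone, ribosomal protein and mitochondrially encoded genes. Txnrd2 came to 1.08 there with a pseudocount of 0.1. In sgWdr4-2 against WT, 0 of the 9 were 2-fold lower or higher, where 4.87% and 3.53% of all genes were. Under both guides, with 2.04% of all genes lower and 0.902% higher, the count was likewise 0 in each direction. In Wdr4 cKO against Wdr4 ff, 2 of the 8, Msrb1 and Txnrd1, were at least 2-fold lower, where 16.0% of all 7101 genes were, and 0 were higher, where 4.03% were. These TAM counts over all genes, 286 higher and 1135 lower, became 593 higher and 653 lower once libraries were rescaled to the same median, which moved the median of all genes from -0.25 to 0.04, and Txnrd1 then came to -0.95, short of 2-fold.

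For footprints in sgWdr4-1 against WT, Selenow and Selenot were at least 2-fold lower, where 10.3% of all genes were, and Txnrd2 at least 2-fold higher, where 16.1% were. Txnrd2 entered the count only through sgWdr4-1, since without that library its mean footprint level is under 5 TPM. Its difference fell short of 2-fold with either rescaling (0.90 in both) and with a pseudocount of 5 (0.67), and Gpx4 joined the lower ones with either rescaling (-1.002 and -1.08). In sgWdr4-2, 0 of the 9 were, against 4.63% of all genes lower and 3.03% higher, and under both guides 0 were, against 1.43% and 0.743%. Msrb1 lay at the limit in sgWdr4-2, at -0.99, and passed it with a pseudocount of 0.1 and when the scaling omitted histone, ribosomal protein and mitochondrially encoded genes (-1.003 in both). In Wdr4 cKO against Wdr4 ff, Msrb1 alone of the 8 had footprints at least 2-fold lower, where 8.15% of all genes did, and 0 had them higher, where 2.73% did. In input RNA 0 of the 10 genes were 2-fold apart in either direction in any comparison, where 0.0796% of all genes were lower and 0.318% higher in sgWdr4-1, 0.0398% and 0.0265% in sgWdr4-2, and 0.169% and 1.42% in Wdr4 cKO.

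The median difference in translation efficiency over all 10 genes was -0.45 in sgWdr4-1 (3 higher, 7 lower), beside 0.01 over all genes tested, and 0.07 in sgWdr4-2 (8 higher, 2 lower), beside -0.05. Of all genes tested, 50.5% were higher in sgWdr4-1, 46.5% in sgWdr4-2 and 35.1% in Wdr4 cKO. In Wdr4 cKO the median over the 10 genes was -0.15 (3 higher, 7 lower), beside -0.25. It came to 0.14 beside 0.04 with libraries rescaled to the same median, and to 0.0015 beside -0.10 when the scaling omitted the same 3 classes of genes, so its sign changed while it stayed above the median of all genes. Limma's empirical Bayes test of both guide lines against the lone WT line, with 1 residual degree of freedom, called 0 of the 9 genes for translation efficiency, for footprints or for input RNA after Benjamini-Hochberg adjustment over all 7536 genes (adjusted p = 0.9999 for all 9 in translation efficiency). At an unadjusted p under 0.05 it also gave 0 of the 9 in each measure. Of all 7536 genes, 165 were under it for translation efficiency, 65 for footprints and 55 for input RNA. These counts over all genes also stand beside those of the lists below. After adjustment it called, over all genes, 0.0398% higher and 0.0265% lower for translation efficiency, 0.0133% and 0 for footprints, and 0 and 0 for input RNA. That test takes its spread from differences between the guides and assumes that WT varies likewise. For translation efficiency the spread was pooled over genes of like mean translation efficiency, and for footprints over genes of like footprint level. An SE or p of a gene therefore does not measure the distance between its own guides. In translation efficiency Selenow, with guide differences of -0.90 and 0.72, had an SE of 0.57. Msrb1, with guide differences of -0.49 and -0.84, had an SE of 0.58. The test does not show that the genes were unchanged.

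**Figure D3:**
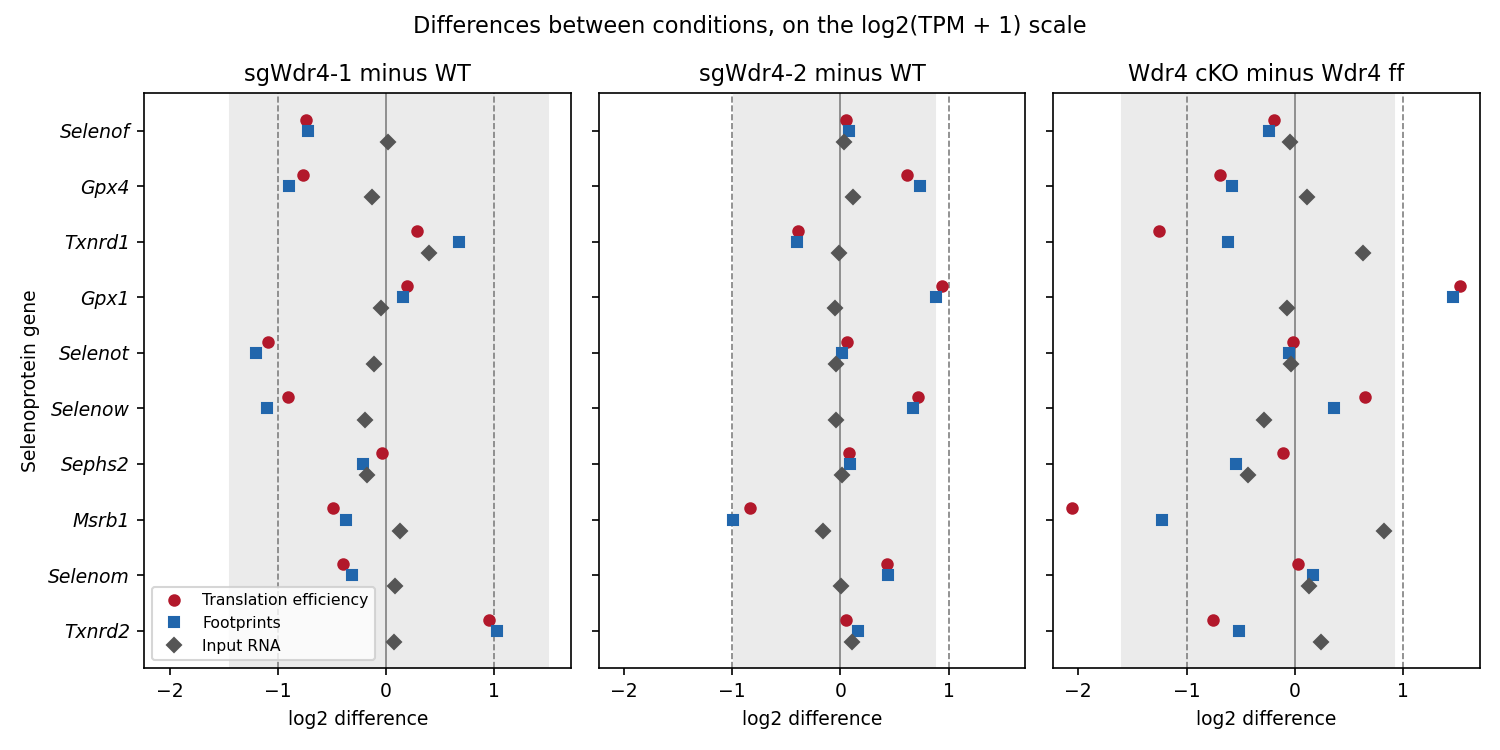
Log2 differences of the 10 selenoprotein genes in translation efficiency (circles), footprints (squares) and input RNA (diamonds), for sgWdr4-1 minus WT, sgWdr4-2 minus WT and Wdr4 cKO minus Wdr4 ff. Dashed lines mark 2-fold, and the grey band spans the 5th to the 95th percentile of translation efficiency differences over all genes tested; Msrb1 at -2.05 in Wdr4 cKO and Selenot at -1.09 in sgWdr4-1 lie farthest to the left among circles in their panels.

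The glutathione peroxidases had abundant mRNA and few footprints in every condition. Gpx4, which reduces lipid hydroperoxides in membranes, had input of 577 TPM in sgWdr4-1, 685 TPM in sgWdr4-2 and 632 TPM in WT, and of 620.1 TPM in Wdr4 cKO and 573 TPM in Wdr4 ff. Its footprints were 2.67 TPM in sgWdr4-1, 10.4 TPM in sgWdr4-2 and 5.84 TPM in WT, and 7.14 TPM in Wdr4 cKO against 11.1 TPM in Wdr4 ff. Footprint TPM thus came to between 0.462% and 1.94% of input TPM. The 2 guide lines lay on opposite sides of WT, at -0.77 and 0.62 in translation efficiency, and Wdr4 cKO lay at -0.69 from Wdr4 ff. By limma the mean difference of the guides was -0.08 (SE 1.479, adjusted p = 0.9999). Gpx4 passed the filter in iBMDM only through sgWdr4-2, since without that library its mean footprint level is under 5 TPM.

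Gpx1, the cytosolic peroxidase that removes hydrogen peroxide, had input of 247 TPM in sgWdr4-1, 245 TPM in sgWdr4-2 and 254 TPM in WT, and of 227 TPM in Wdr4 cKO and 239 TPM in Wdr4 ff. Its footprints were 3.65 TPM in sgWdr4-1 and 6.73 TPM in sgWdr4-2, against 3.18 TPM in WT, and 6.31 TPM in Wdr4 cKO against 1.66 TPM in Wdr4 ff. The 3 targeted libraries were thus each above their control, by 0.20, 0.94 and 1.53 on the log2 scale of translation efficiency. The mean footprint level was under 5 TPM in both tables, so Gpx1 was not tested with the others. The Wdr4 cKO difference came to 0.83 with a pseudocount of 5, and that of sgWdr4-2 to 1.11 with a pseudocount of 0.1.

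Low footprints at ample input were found in other genes too. Of 2994 genes with at least 50 TPM in all 5 inputs, 42 had a translation efficiency of -4 or lower in all 5 conditions, among them Gpx4, ranked 27th from the lowest by its mean, and Gpx1, ranked 35th. Selenok, which encodes a selenoprotein of the endoplasmic reticulum membrane and is not among the 10 genes, was ranked 31st: its input was 59.9 to 80.4 TPM, and its footprints were listed at 0 in all 5 libraries. Footprints of 12 of the 42 genes were listed at 0 throughout, including Rpl5, a ribosomal protein gene, so a value of 0 here is not read as absence of translation. For these 12 genes translation efficiency follows from input alone, so the ranks do not order genes by how few footprints they had. RefSeq names a pseudogene after 17 of the 42 genes (40.5%), against 207 of the other 2952 genes (7.01%). It names 2 after Gpx4, 8 after Selenok, 1 after Selenot and 0 after the other 8 of the 10 genes, Gpx1 included. Only pseudogenes with a symbol built on that of the gene were counted, and any under other names are not included. The sources used here do not state how reads that map to several places were counted, and the part of such reads in these values was not tested.

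The cysteine-containing relative Gpx8, a peroxidase of the endoplasmic reticulum, had footprints close to or above its input. Its input lay between 149 and 157 TPM and its footprints were 145 TPM in sgWdr4-1 and 141 TPM in sgWdr4-2, against 208 TPM in WT, and 213 TPM in Wdr4 cKO against 229.8 TPM in Wdr4 ff. Gpx5, Gpx6 and the selenoprotein Gpx2 were listed at 0 in all 10 libraries, and the secreted selenoprotein Gpx3 was under 1 TPM in every input.

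The thioredoxin reductases had footprints below input in all conditions. Txnrd1, the cytosolic enzyme, had footprints of 271 TPM in sgWdr4-1 and 128 TPM in sgWdr4-2, against 169 TPM in WT, and of 93.7 TPM in Wdr4 cKO against 144 TPM in Wdr4 ff. Its input was 509.8 TPM in sgWdr4-1 and 385 TPM in sgWdr4-2, against 388 TPM in WT, and 585 TPM in Wdr4 cKO against 377 TPM in Wdr4 ff. Input was thus above the control in sgWdr4-1 (0.39 on the log2 scale) and Wdr4 cKO (0.63) and level with it in sgWdr4-2 (-0.01). Translation efficiency differed by 0.28 in sgWdr4-1, -0.39 in sgWdr4-2 and -1.25 in Wdr4 cKO, where input was higher and footprints lower. In bulk samples, fewer cells of a type and less RNA per cell cannot be told apart. The summed fibroblast and stellate cell markers, of which Acta2 was highest (2397 to 3785 TPM), were at 5148 TPM in sgWdr4-1 and 4505 TPM in sgWdr4-2 against 4434 TPM in WT, and at 6325 TPM in Wdr4 cKO against 4433 TPM in Wdr4 ff. The summed hepatocyte and hepatoma markers, mostly Apoa2 (90.2 to 139.5 TPM), were at 139 TPM in sgWdr4-1 and 108 TPM in sgWdr4-2 against 114 TPM in WT, and at 166 TPM in Wdr4 cKO against 98.3 TPM in Wdr4 ff, with Ttr and Serpina1a listed at 0 in all 10 libraries. The summed macrophage markers, mostly Lgals3, were at 564 TPM in sgWdr4-1 and 627 TPM in sgWdr4-2 against 589.5 TPM in WT, and at 688 TPM in Wdr4 cKO against 527 TPM in Wdr4 ff. The part of these lists in the differences of Txnrd1 input was not tested.

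Txnrd1 is a known target of NRF2, the transcription factor of the oxidative stress response, which binds antioxidant response elements. A search of the 250 bases before each RefSeq transcription start (GRCm38.p6) for TGACNNNGC on either strand matched 1 of the 10 genes, Txnrd1, at 1 of its 3 starts, where 11.5% of 27025 genes and 10.16% of 32851 windows held a match. The stretch around it is shown because it is the single match among the 10 genes, and it ran at chr10:82859074-82859162 on the plus strand, with the match, read on the minus strand, in capitals 92 to 84 bases before that start.
Txnrd1: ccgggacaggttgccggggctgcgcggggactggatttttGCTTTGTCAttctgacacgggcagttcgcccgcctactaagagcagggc
A match of letters describes the window and shows neither binding nor use of that start in these cells.

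Txnrd2, the mitochondrial reductase, had low footprints: 9.94 TPM in sgWdr4-1 and 5.02 TPM in sgWdr4-2, against 4.39 TPM in WT, and 2.60 TPM in Wdr4 cKO against 4.16 TPM in Wdr4 ff. The sgWdr4-1 library was the highest of the 5 and Wdr4 cKO the lowest. Its translation efficiency differed by 0.95 in sgWdr4-1, 0.05 in sgWdr4-2 and -0.76 in Wdr4 cKO, with input between 12.0 and 14.7 TPM throughout. The third reductase, Txnrd3, known from testis, also had its highest footprints in sgWdr4-1 and its lowest in Wdr4 cKO, at 9.08 TPM in sgWdr4-1 and 4.86 TPM in sgWdr4-2, against 3.465 TPM in WT, and 2.14 TPM in Wdr4 cKO against 4.02 TPM in Wdr4 ff.

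Msrb1, which reduces methionine-R-sulfoxide in the cytosol and nucleus, was the one gene of the 10 with fewer footprints in all 3 targeted libraries than in their controls, in the deposited TPM and with either rescaling. Its footprints were 119 TPM in sgWdr4-1 and 76.8 TPM in sgWdr4-2, against 154 TPM in WT, and 82.3 TPM in Wdr4 cKO against 194 TPM in Wdr4 ff. Both controls were above every targeted library. Footprints were higher for 53.6% of all genes tested in sgWdr4-1, 47.5% in sgWdr4-2 and 36.1% in Wdr4 cKO. The share of all genes lower in all 3 is not given here, so this pattern is not read as particular to Msrb1. Msrb1 input was 61.01 TPM in sgWdr4-1 and 49.98 TPM in sgWdr4-2, against 55.9 TPM in WT, and 92.9 TPM in Wdr4 cKO against 52.0 TPM in Wdr4 ff. Translation efficiency differed by -0.49 in sgWdr4-1, -0.84 in sgWdr4-2 and -2.05 in Wdr4 cKO, where the footprint difference was -1.23 and the input difference 0.82. By limma the mean difference of the guides was -0.66 (SE 0.58, unadjusted p = 0.249, adjusted p = 0.9999), lower in 2 of 2 guide lines. The Wdr4 cKO difference has no replicate check.

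Among the methionine sulfoxide reductases without selenocysteine, Msrb3 and Msra also had lower translation efficiency in each targeted library. For Msrb3, of the endoplasmic reticulum and mitochondria, the differences were -1.23 in sgWdr4-1, -0.20 in sgWdr4-2 and -1.30 in Wdr4 cKO. For Msra, which reduces methionine-S-sulfoxide, they were -0.81, -0.82 and -0.89 in the same order. Of the 7 genes of the list of cysteine counterparts, 3 were tested in each table, and 1 of the 3, Msrb3, was at least 2-fold lower in sgWdr4-1, where 13.7% of all genes were, and in Wdr4 cKO, where 16.0% were (-0.99 in the second with libraries rescaled to the same median). Limma called 0 of the 3 in any measure, with 0 at an unadjusted p under 0.05. Their lists and those below were compared by counts only, and whether they differ from the selenoprotein genes was not tested.

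**Figure D4:**
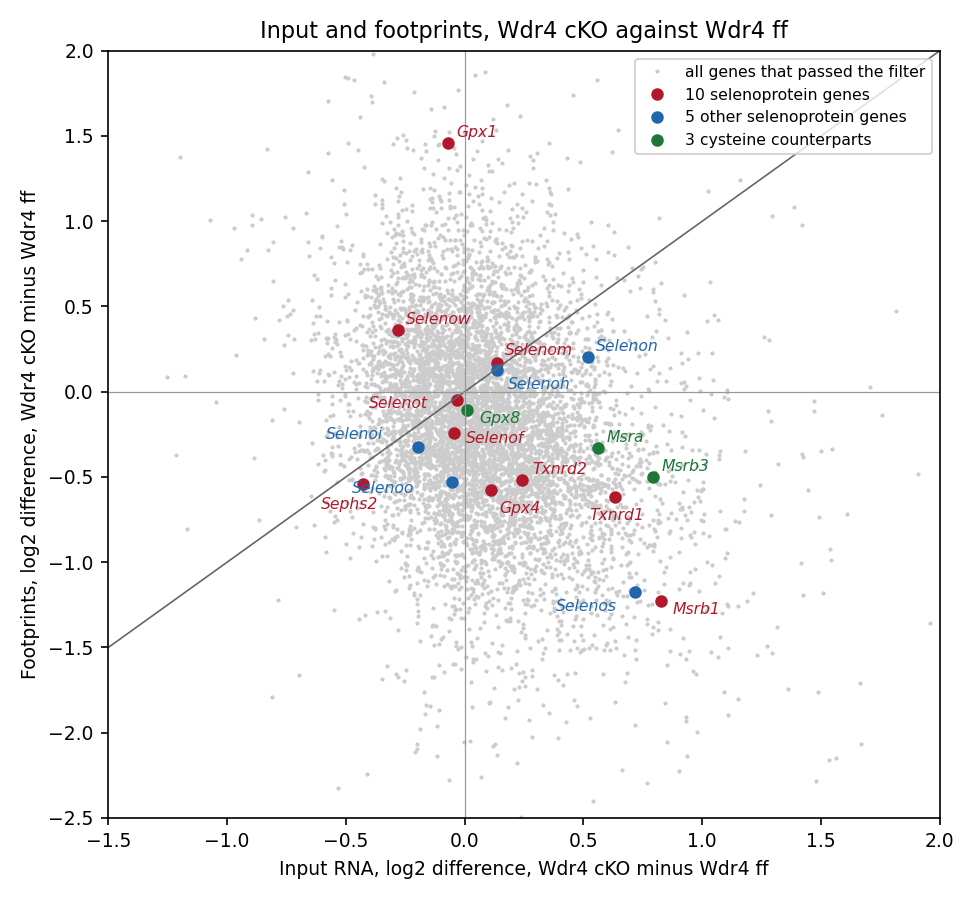
Log2 difference between Wdr4 cKO and Wdr4 ff in input RNA (x axis) and in footprints (y axis), with 7065 of 7101 tested genes in grey (36 lie outside the axes), the 10 selenoprotein genes in red, 5 other selenoprotein genes in blue and 3 cysteine counterparts in green. The line marks equal differences; Msrb1 (0.82 and -1.23) and Selenos (0.72 and -1.18) lie far below it, and Gpx1 (-0.07 and 1.46) far above.

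The 3 genes for proteins of the endoplasmic reticulum each had a lower translation efficiency in sgWdr4-1 than in WT and a higher one in sgWdr4-2, as did Gpx4, Selenow and Sephs2. Selenof had footprints of 829.9 TPM in sgWdr4-1 and 1449 TPM in sgWdr4-2, against 1369 TPM in WT, and of 1423 TPM in Wdr4 cKO against 1681 TPM in Wdr4 ff. Selenot, a thioredoxin-like membrane protein, had 79.1 TPM in sgWdr4-1 and 185 TPM in sgWdr4-2, against 183 TPM in WT, and 219 TPM in Wdr4 cKO against 226 TPM in Wdr4 ff. Selenom, a thioredoxin-like protein of the lumen, had 24.7 TPM in sgWdr4-1 and 42.3 TPM in sgWdr4-2, against 31.0 TPM in WT, and 44.5 TPM in Wdr4 cKO against 39.5 TPM in Wdr4 ff. Footprints of each gene were lowest in sgWdr4-1 among all 5 libraries, as were those of Selenow, Gpx4 and Sephs2. For the 3 endoplasmic reticulum genes translation efficiency differed by -1.09 to -0.40 in sgWdr4-1 and by 0.05 to 0.43 in sgWdr4-2. In Wdr4 cKO it differed by -0.20 to 0.03. There Selenof came to 0.11 and Selenot to 0.29 with libraries rescaled to the same median. The sgWdr4-1 footprint library is the one with few mitochondrially encoded reads, and the part of that in these values was not tested. Of the 7 genes for proteins of the cytosol, nucleus or mitochondrion, 4 were lower in sgWdr4-1 and 5 higher in sgWdr4-2. Translation efficiency was higher for 50.5% of all genes tested in sgWdr4-1 and for 46.5% in sgWdr4-2. The share of all genes lower in sgWdr4-1 and higher in sgWdr4-2 is not given here. The grouping by cell compartment rests on textbook knowledge and was made after the values were seen.

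Selenow, a small cytosolic protein with a thioredoxin-like fold, had the highest median translation efficiency of the 10, although Msrb1 was above it in sgWdr4-1, WT and Wdr4 ff. Its footprints were 98.9 TPM in sgWdr4-1 and 342 TPM in sgWdr4-2, against 214 TPM in WT, and 341 TPM in Wdr4 cKO against 265 TPM in Wdr4 ff. Input was 80.5 TPM in sgWdr4-1 and 89.8 TPM in sgWdr4-2, against 92.6 TPM in WT, and 80.6 TPM in Wdr4 cKO against 98.3 TPM in Wdr4 ff, so each targeted library was below its control. Translation efficiency differed by -0.90 in sgWdr4-1, 0.72 in sgWdr4-2 and 0.65 in Wdr4 cKO. Without sgWdr4-1, both remaining differences were positive and under 2-fold.

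Sephs2, the selenoprotein that makes selenophosphate, the selenium donor for selenocysteine, varied least in translation efficiency. Its footprints were 11.05 TPM in sgWdr4-1 and 13.9 TPM in sgWdr4-2, against 12.99 TPM in WT, and 11.7 TPM in Wdr4 cKO against 17.5 TPM in Wdr4 ff. Its input was 54.3 TPM in sgWdr4-1 and 62.1 TPM in sgWdr4-2, against 61.5 TPM in WT, and 43.9 TPM in Wdr4 cKO against 59.5 TPM in Wdr4 ff. Translation efficiency lay between -2.20 and -1.71 in the 5 conditions (SD 0.21), and it differed by -0.04 in sgWdr4-1, 0.08 in sgWdr4-2 and -0.11 in Wdr4 cKO, the last of which turned to 0.17 with libraries rescaled to the same median.

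Of 15 listed genes for selenocysteine synthesis, insertion and selenium uptake, 10 were tested in iBMDM and 9 in TAM, and limma called 0 in any measure. At an unadjusted p under 0.05 there was 1 for translation efficiency, where 165 of all 7536 genes were, and 0 for footprints and input RNA. In sgWdr4-1, where 14.8% of all genes were at least 2-fold higher in translation efficiency and 13.7% lower, it was at least 2-fold higher for 4, namely Ncl, a nucleolar protein reported to bind the selenocysteine insertion element (2.70), Sepsecs, which makes selenocysteine on its tRNA (1.51, passing the filter only through its footprints in this library), Sars, which charges that tRNA with serine (1.33), and Eif4a3 (1.20). It was at least 2-fold lower for Lrp8, a receptor for the selenium carrier selenoprotein P (-1.20). The sgWdr4-1 footprint library is again the one that stands apart. In sgWdr4-2 the count was 0 in either direction, with a range from -0.70 for Trit1, which modifies the selenocysteine tRNA, to 0.87 for Rpl30. In Wdr4 cKO, where 16.0% of all genes were, 1 was at least 2-fold lower, Eefsec, the dedicated elongation factor (-1.47). Its footprints were 3.96 TPM in Wdr4 cKO against 9.41 TPM in Wdr4 ff, so it passed the filter only through Wdr4 ff. The footprint difference of -1.07 came to -0.89 with libraries rescaled to the same median. In sgWdr4-1 and sgWdr4-2 translation efficiency of Eefsec differed by 0.50 and 0.35. The binding protein Secisbp2 fell short of the filter in both tables.

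The mouse has 14 further selenoprotein genes on the list used here, of which 6 were under 1 TPM in every input, namely Gpx2, Gpx3, Selenov and the iodothyronine deiodinases Dio1, Dio2 and Dio3. Tested were 6 in iBMDM and 5 in TAM, and limma called 0, with 0 at an unadjusted p under 0.05. Selenos, of endoplasmic reticulum-associated degradation, had a pattern like that of Msrb1. Its footprints were 118 TPM in sgWdr4-1 and 112 TPM in sgWdr4-2, against 199 TPM in WT, and 130.4 TPM in Wdr4 cKO against 296 TPM in Wdr4 ff. Its translation efficiency differed by -1.27 in sgWdr4-1, -0.83 in sgWdr4-2 and -1.89 in Wdr4 cKO, and both controls had more footprints than every targeted library. Selenon, a membrane protein that senses calcium in the endoplasmic reticulum, was at least 2-fold lower in sgWdr4-1 (-1.25), as 13.7% of all genes were, and differed by -0.08 in sgWdr4-2 and -0.32 in Wdr4 cKO. Selenoh, a nucleolar protein, differed by 0.59, 0.81 and -0.01 in the same order.

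Genes of the thioredoxin and glutathione systems and other NRF2 targets, which work with these enzymes, were tested for 26 of 28 in iBMDM and 25 in TAM, and limma called 0 in any measure, with 0 at an unadjusted p under 0.05. In Wdr4 cKO translation efficiency was at least 2-fold lower for 4 of the 25, a share at the 16.0% of all genes, namely Hmox1, haem oxygenase (-3.70), Srxn1, sulfiredoxin (-1.69), Slc3a2, a subunit of the cystine transporter (-1.68), and catalase, Cat (-1.27, or -0.99 with libraries rescaled to the same median), and higher for Txn2, mitochondrial thioredoxin and the substrate of Txnrd2 (1.04), where 4.03% of all genes were higher. Hmox1 input was 243 TPM in Wdr4 cKO against 83.2 TPM in Wdr4 ff, and its footprints 12.0 TPM against 57.3 TPM in the same libraries. In sgWdr4-2, where 4.87% of all genes were lower, the 3 lower ones were Txnip (-1.74), Hmox1 (-1.66) and Slc3a2 (-1.22). In sgWdr4-1, where 13.7% of all genes were lower and 14.8% higher, Txn2 alone was lower (-1.22), with Prdx1, Prdx2 and Prdx3, peroxiredoxins that thioredoxin serves, higher (1.11, 1.27 and 1.09, with Prdx1 at 1.00 and Prdx3 at 0.97, both just short of 2-fold, when the scaling omitted the same 3 classes of genes). The list's median was -0.05 in sgWdr4-1, 0.03 in sgWdr4-2 and -0.16 in Wdr4 cKO, beside 0.01, -0.05 and -0.25 over all genes tested.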

How the data were processed

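The data were 10 mouse libraries, 1 input and 1 footprint library for each of 5 conditions, with no replicates. The authors deposited them as TPM in 2 tables, normalised separately, and depth is unknown. The submitters' processing notes name Bowtie2 and fastp 0.18.0; build, annotation, quantifier and the handling of reads that map to several genes: not given in the sources used here. Columns were matched to samples by title. For symbols with several rows the row with the highest mean was kept. Values were analysed as log2(TPM + 1), where fold changes of low genes come out too small, and genes entered at a mean of at least 5 TPM in input and in footprints (7536 and 7101 genes). A gene was counted at 2-fold or more. Limma 3.58.1 (R 4.3.3) compared both guide lines with WT, two-sided, and adjusted p over all tested genes. Its spread followed a trend on each gene's mean of the measure tested. It was also run on simulated data in which WT varied like the guides, so whether WT varies likewise was not tested. No label states that the cultures were separate, so p-values measure only the spread between these samples. Tables and plots were made with pandas 2.3.3, matplotlib 3.10.9 and numpy 2.4.6 under Python 3.11.15. Symbols were matched to RefSeq (GRCm38.p6), which held all 10 genes, and the only coordinates given are those of a RefSeq promoter. Selenocysteine codons and proteins were not analysed here. The genes and lists were chosen with earlier results of these data known. All 10 genes were named in every library; from the lists, genes at least 2-fold apart, extremes and cysteine counterparts were named, and Rpl5, Selenok, Secisbp2 and the genes near 0 were named after their values were seen. Alternatives were other pseudocounts, filters, scalings, treatment of repeated symbols, limma without a trend or with an interaction term, and each guide left out.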

Additional observations from a re-analysis of the deposited data

Results flagged for a closer look

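Both guide lines lay on one side of WT and Wdr4 cKO on the other side of Wdr4 ff for 3 values, and none of these differences between the tables was tested. For translation efficiency of Txnrd2, the mean of both guide differences (0.95 and 0.05) minus that of Wdr4 cKO (-0.76) was 1.26 on the log2 scale. For Txnrd2 footprints it was 1.11, from differences of 1.02 in sgWdr4-1, 0.16 in sgWdr4-2 and -0.52 in Wdr4 cKO. Txnrd2 was under the filter in TAM, with footprints of 2.60 TPM in Wdr4 cKO and 4.16 TPM in Wdr4 ff, and its mean over the guides comes mostly from sgWdr4-1, whose footprint library stands apart. For Selenof input it was 0.0697, from differences of 0.02, 0.03 and -0.05, and the direction of the first of these turned with either rescaling, to -0.09 and -0.04.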

How the results depend on the processing

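Of 90 differences (10 genes, 3 measures, 3 comparisons), 80 stayed on the same side of 2-fold under all 5 alternatives of pseudocount, scaling and repeated symbols, and 0 past 2-fold changed direction. By limma, 0 of the genes tested were called under the alternatives run, with 9 of the 10 tested in most, 6 with a filter at 20 TPM and all 10, Gpx1 included, only with no filter; the interaction term was fitted for translation efficiency alone. Over all genes, the 5 called for translation efficiency became 3 with rescaling to the same median and 0 with no filter, with a filter at 20 TPM, and with an interaction term without a replicate block. The 1 called for footprints became 5 with a pseudocount of 0.1, 2 with either rescaling or without a trend, and 0 with a pseudocount of 5, no filter or a filter at 20 TPM. With a guide line left out there is no residual degree of freedom and no test. The count of selenoprotein genes at least 2-fold apart under both guides (0) ranged, with sgWdr4-1 or sgWdr4-2 left out, from 0 to 1 lower for translation efficiency and from 0 to 1 higher and 0 to 2 lower for footprints. In Wdr4 cKO, no filter let in Gpx1 as 1 gene higher in translation efficiency and 1 in footprints, and rescaling to the same median left 1 of the 2 lower. No paired analysis was possible because conditions had 1 library per kind and shared no replicate numbers.

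Counts over all genes in Wdr4 cKO moved as follows. For translation efficiency, 286 higher genes became 182 with a pseudocount of 5, 528 with no filter, 125 with a filter at 20 TPM, 593 with rescaling to the same median and 451 with rescaling without mitochondrial, ribosomal protein and histone genes; 1135 lower genes became 728, 2241, 399 and 653 with the first 4 of these. For footprints, 194 higher genes became 107, 441, 60 and 359 and 579 lower genes 258, 1205, 170 and 334 with the same 4. For input RNA, 101 higher genes became 48, 282 and 35 and 12 lower genes 7, 35 and 6 with the first 3. A filter changes these counts by testing fewer or more genes; the cause was otherwise not tested.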

Other observations

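Genes listed for ferroptosis, the lipid-peroxide death that Gpx4 restrains, were tested for 6 of 9 in each table. In sgWdr4-1, where 14.8% of all genes were at least 2-fold higher in translation efficiency and 13.7% lower, it was at least 2-fold higher for Dhodh, of pyrimidine synthesis (1.498), and Acsl4, which loads polyunsaturated fatty acids into lipids (1.11, or 1.00 and just short of 2-fold when the scaling omitted histone, ribosomal protein and mitochondrially encoded genes), and lower for Lpcat3, which places them in phospholipids (-1.41). In sgWdr4-2 and Wdr4 cKO 0 of the 6 were 2-fold apart in either direction, and limma called 0, with 0 at an unadjusted p under 0.05.

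Likeness was measured as the Euclidean distance over the 3 differences of translation efficiency, among 3395 genes with at least 20 TPM in input and footprints. The genes nearest to Gpx1 were Mrps17 (distance 0.24), Eef1b2 (0.25) and Mbd3 (0.32), and those nearest to Gpx4 were Bet1 (0.26), Kxd1 (0.34) and Dbndd2 (0.34). Gpx1 and Gpx4 themselves stayed under 20 TPM in footprints, at no more than 6.73 TPM and 11.1 TPM. The Gpx1 difference in Wdr4 cKO was 1.53, and 0.83 with a pseudocount of 5. Distances over 3 values from single libraries are a description.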
